A study of Mus musculus with 4 samples.

Results

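Ribosomal protein genes and their pseudogenes were examined in GC-1 cells, a mouse spermatogonial cell line. The members were chosen by gene name, and the pseudogenes were also selected on a count summed over the libraries of at least 20. They comprised 250 of the 55385 genes listed, 95 in a coding set and 155 in a pseudogene set. The coding set held 76 cytosolic ribosomal protein genes, 46 of the large and 30 of the small subunit, and 8 paralogs of such genes. The remaining 11 shared only the name pattern and encode no ribosomal protein. These were 10 kinase genes with names beginning in Rps6k, and Rps19bp1. Rpsa and Fau encode ribosomal proteins but fell outside the pattern.

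All cells were transfected by lipofection. Control cells received the MYC plasmid and the TET1 overexpression group received MYC-TET1. Cells were collected at 24 h or 36 h, which gave 4 conditions with 1 library each, so that plasmid, culture and library cannot be told apart within a time point. The libraries held 60611877 to 72547105 counts, and Tet1 had an FPKM (fragments scaled to the length of the gene model and the depth of the library) of 0.0525 at 24 h and 0.0562 at 36 h with MYC, and of 40.2 and 19.6 with MYC-TET1. Of 12 spermatogonial and germ cell markers, 1 reached an FPKM of 1 in any library, Uchl1 at 10.5 to 12.9, and Zbtb16, Dazl, Sall4, Lin28a, Stra8 and Sohlh1 were at or near 0 in every library. Of 6 fibroblast or myoid markers 4 reached it, of 6 Sertoli markers 3, and of 6 Leydig markers 0.

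Ribosomal proteins assemble with ribosomal RNA into the large and small subunits that carry out translation, and proliferating cells of every type keep their messages at a high level. Their short, abundant messages have been copied back into the mouse genome many times by reverse transcription. The resulting processed pseudogenes lack introns and may remain nearly identical to the messenger RNA of the parent gene. A read from such a message can then match several loci, and which locus is credited depends on how the reads were aligned and counted. How reads with several matches were treated is not given in the sources used here, so the count of any single copy, and of a parent with near-identical copies, is uncertain.

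The likeness of parents and copies is shown for 4 families on which the results turn. Each line gives a stretch of 60 bases of the parent coding sequence and the same stretch of its copies, 5′ to 3′ on the strand of the locus, from the GENCODE M21 transcripts (build GRCm38). Capitals mark the positions at which any of the 3 sequences differed. The stretch was the first one inside a single parent exon with the most such positions. Substitutions are counted from the A of the parent start codon. The first set shows the family of Rps2, a protein of the small subunit, with the parent at chr17:24720300-24720359 (plus strand), Rps2-ps13 at chrX:52898612-52898671 (plus) and Gm6311 at chr13:75954160-75954219 (plus).
Rps2: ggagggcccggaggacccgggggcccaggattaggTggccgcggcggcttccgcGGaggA
Rps2-ps13: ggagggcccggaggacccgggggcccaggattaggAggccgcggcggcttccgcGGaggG
Gm6311: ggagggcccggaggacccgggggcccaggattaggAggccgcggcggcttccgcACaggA
Rps2-ps13 carried T60A and A84G in this stretch, and Gm6311 carried T60A, G79A and G80C.

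The family of Rpl21, a protein of the large subunit, is shown because nearly all of its counts lay on copies. The parent stretch is at chr5:146835640-146835699 (plus strand), Rpl21-ps15 at chrX:151215272-151215331 (minus) and Gm10163 at chr9:88391155-88391214 (plus).
Rpl21: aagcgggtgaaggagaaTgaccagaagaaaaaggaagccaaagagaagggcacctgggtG
Rpl21-ps15: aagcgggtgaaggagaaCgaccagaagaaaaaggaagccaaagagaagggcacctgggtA
Gm10163: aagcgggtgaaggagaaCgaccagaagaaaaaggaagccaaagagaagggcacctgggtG
Both copies carried T336C, and Rpl21-ps15 also carried G378A.

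The family of Rpl29, another large subunit protein, holds the ribosomal protein gene with the widest spread over the libraries. The parent stretch is at chr9:106430308-106430367 (plus strand), Gm13841 at chr5:115802063-115802122 (minus) and Gm14036 at chr2:134803983-134804042 (plus).
Rpl29: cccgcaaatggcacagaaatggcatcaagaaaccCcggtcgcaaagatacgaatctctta
Gm13841: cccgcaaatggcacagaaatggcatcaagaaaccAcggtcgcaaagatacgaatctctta
Gm14036: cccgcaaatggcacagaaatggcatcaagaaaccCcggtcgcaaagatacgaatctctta
In this stretch Gm13841 carried C72A, while Gm14036 did not differ from the parent.

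The family of Rpl3, which lies near the peptidyl transferase centre of the large subunit, holds a pseudogene that was higher with MYC-TET1 at both times, Rpl3-ps2. The parent stretch is at chr15:80081679-80081738 (minus strand), Rpl3-ps1 at chrX:13202813-13202872 (plus) and Rpl3-ps2 at chrX:74170896-74170955 (plus).
Rpl3: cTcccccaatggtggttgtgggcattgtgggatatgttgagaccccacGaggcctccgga
Rpl3-ps1: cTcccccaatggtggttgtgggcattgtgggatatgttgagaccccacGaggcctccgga
Rpl3-ps2: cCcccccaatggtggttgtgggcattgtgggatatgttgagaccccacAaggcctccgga
Rpl3-ps2 carried T243C and G290A. Rpl3-ps1 had no difference in the stretch.

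Such likeness was common in the pseudogene set. Of the 155 pseudogenes, 151 could be aligned to the coding sequence of the parent in their name, and 143 over at least 80% of its length. Among these 143 the identity ran from 87.7% to 100%, with a median of 98.7%. Rpl36a-ps3 matched Rpl36al in place of the parent of its name, and Rpl13-ps1 and Rps7-ps2 matched no parent. In 10 pseudogenes the whole coding sequence of the parent was present with no differing base. These were Rpl10-ps1, Rpl10-ps3, Rpl10a-ps1, Rpl15-ps3, Rpl27-ps3, Rpl28-ps1, Rpl36a-ps2, Rpl38-ps2, Rps16-ps2 and Rps6-ps4. Identity went with depth: the 92 pseudogenes at 98% identity or more had a median summed count of 2205, and the 51 below it had 193.

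The name search had returned 299 ribosomal protein pseudogenes, of which 111 had no count in any library and 33 had summed counts of 1 to 19. Just outside the limit were Rpl38-ps1 at 17, Rpl21-ps3 at 19 and Rpl31-ps4 at 19, and just inside it were Rpl13a-ps1 at 28 and Rpl31-ps17 at 29. Of the 155 selected, 4 were typed as something other than a pseudogene in the deposited table, and 25 overlapped another gene on the same strand. Of 39 members named for their count, spread or 2-fold ratio, 25 overlapped no other annotated gene in GENCODE M21 and 13 lay within an intron of one. Rps18-ps5 touched an exon of Gm11361.

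The 76 ribosomal protein genes were among the most abundant messages. They took 4.44%, 4.403%, 4.48% and 4.497% of all counts in MYC 24 h, MYC-TET1 24 h, MYC 36 h and MYC-TET1 36 h, and this order of libraries holds for every list of 4 values that follows. Their median FPKM was 242, 228, 234 and 246. The shares differed little between the libraries, and neither plasmid stood apart. The pseudogene set took 0.657%, 0.645%, 0.579% and 0.559% of the counts, and its share was lower in both libraries of 36 h than in both of 24 h. That order rested on Rps2-ps10 and Rps2-ps13, since the other 153 pseudogenes took 0.438%, 0.426%, 0.427% and 0.438%, a comparison added after the data were seen.

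Levels per length differed widely between the genes. The highest mean FPKMs belonged to Rplp1 at 1840, an acidic protein of the ribosomal stalk, and Rpl19 at 1779, a large subunit protein. Rplp0, the base of the stalk, followed at 1415, then Rpl8 at 1341 and Rps15, of the small subunit, at 926. Within each of these 5 genes the ranges over the libraries, from 0.04 to 0.17 on the log2(FPKM + 0.1) scale, were smaller than the step from Rpl19 to Rplp0, while Rplp1 and Rpl19 could not be ordered. Rplp0 was above Rpl8 in each of the 4 libraries. Rplp1 had FPKMs of 1937, 1911, 1721 and 1789, against 1747, 1751, 1808 and 1812 in Rpl19.

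The lowest levels were those of Rpl21, Rpl29, Rpl35a, Rps18 and Rpl30, with mean FPKMs of 0.802, 6.09, 11.95, 24.7 and 26.7. Rpl21 had FPKMs of 0.649, 0.870, 0.730 and 0.960, from only 166, 237, 168 and 265 counts. Rpl35a had 12.3, 12.4, 11.8 and 11.3, and Rps18 had 25.5, 26.1, 23.8 and 23.3, with no library apart from the others. Each of these 5 genes had most of its family's counts on copies, as described below. Rpsa and Fau, outside the name pattern, lay within the range of the set, with FPKMs of 696 to 716 in Rpsa, the laminin receptor protein of the small subunit, and 604 to 668 in Fau.

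Over the 4 libraries the ribosomal protein genes had narrower ranges than the pseudogenes. The range used here is the highest minus the lowest library on the log2(FPKM + 0.1) scale, and it holds plasmid, time and library together. Of the 76 genes, 75 reached an FPKM of 1 in at least 1 library, and their median range was 0.12, which is a highest library 1.09 times the lowest. Their ranges ran from 0.02 to 2.04, and 1 of the 75, Rpl29, spanned at least 2-fold. Of the 155 pseudogenes, 127 reached that level, with a median range of 0.60, or 1.51-fold, and 33 of the 127 (25.98%) spanned at least 2-fold. Over all 12254 genes that passed the same level the share was 9.99%, and in the whole coding set it was 2 of 88. The 1118 pseudogenes outside the set that passed gave 32.6% and a median range of 0.72, both above the values of the ribosomal pseudogenes. With a pseudocount of 1 the shares were 20 of 127 (15.7%) in the ribosomal pseudogenes, 15.4% in the others and 5.32% over all genes. Since the level can be passed through 1 high library, the values without it are also given: all 155 pseudogenes had a median range of 0.72, and 54 of them (34.8%) spanned at least 2-fold. The shares with the same limit on the summed count were 17.7% of all 18430 genes and 42.2% of 2077 other pseudogenes. The spread of the sets was known when the members were chosen, so these values are a description and carry no test.

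**Figure D1:**
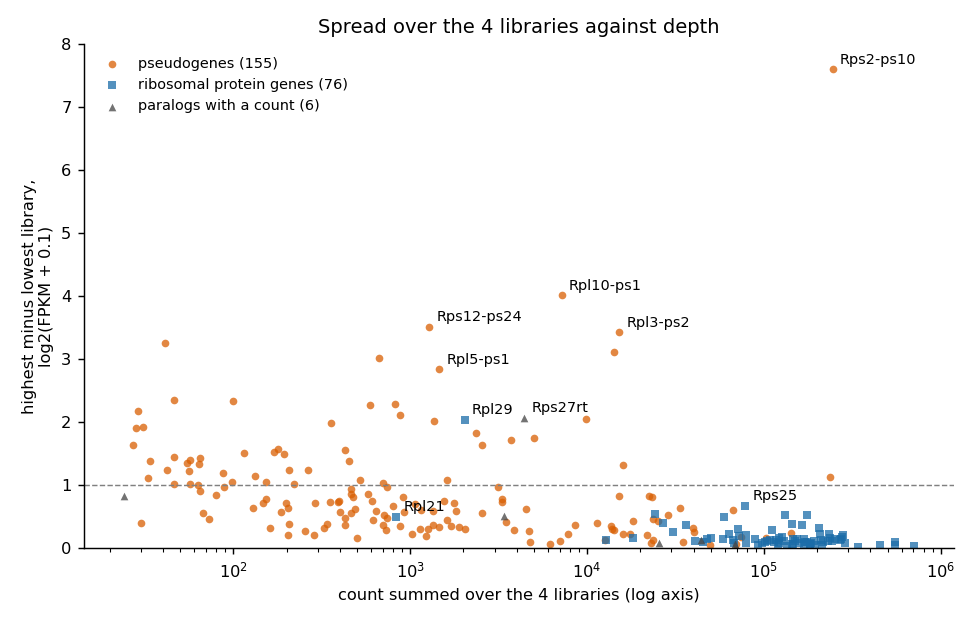
Range over the 4 libraries (highest minus lowest, log2(FPKM + 0.1)) against the count summed over the libraries (log axis), 1 point per member, with the 2-fold line dashed. Most ribosomal protein genes lie at high counts and low range, except Rpl29 with a range of 2.04 and Rpl21 with a summed count of 836, while pseudogenes cover the whole range of counts and reach 7.60 in Rps2-ps10.

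The spread is also given by band of summed count. The highest band has no upper limit, depth was not matched within it, and the part of depth in the spread was not tested. Among members with a summed count of 10000 or more, 0 of 74 ribosomal protein genes and 5 of 32 pseudogenes (15.6%) spanned at least 2-fold in CPM (counts scaled to the library total), against 3.10% of other protein-coding genes and 16.4% of other pseudogenes. Their median ranges were 0.13 and 0.32. With summed counts from 1000 up to that limit the pseudogenes gave 10 of 39 (25.6%), against 6.14% of other protein-coding genes and 18.9% of other pseudogenes. From 100 to 1000 they gave 19 of 58 (32.8%), against 44.4% of other protein-coding genes and 45.8% of other pseudogenes. With 20 to 99 they gave 22 of 26 (84.6%), against 91.8% and 85.8%. As a measure of spread beyond counting, the count dispersion index was used, which is 1 for counting error alone. Its median was 46.8 in the 75 genes and 10.8 in the 127 pseudogenes, and 7.09 over all 155. The index holds condition, culture and library together, and high counts raise it for the same relative spread.

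Identity with the parent also moved with the spread. Among the 143 pseudogenes aligned over at least 80%, 25 of the 92 at 98% identity or more and 26 of the 51 below it spanned at least 2-fold, and the median ranges were 0.58 and 1.00. The less alike pseudogenes had the lower counts, and the parts of identity and depth were not tested.

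Of the 10 pseudogenes with the highest counts, 7 had ranges under 0.5. Rpl3-ps1 had FPKMs of 390, 382, 430 and 363, Rpl7a-ps11 had 452, 432, 407 and 415, and Rps12-ps3 had 626, 652, 577 and 632. Rps10-ps2, at 465, 471, 455 and 475, and Rps18-ps5, at 273, 269.8, 270.1 and 264, were the steadiest of the 10, with ranges of 0.06 and 0.05. Rpl14-ps1 and Rpl17-ps10 had ranges of 0.25 and 0.31, and Rpl21-ps15 had 0.61. The other 2, Rps2-ps10 and Rps2-ps13, spanned more than 2-fold and are described with the plasmid comparison.

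After Rpl29 the widest ranges among the ribosomal protein genes were modest. Rps25, of the small subunit, had FPKMs of 86.3, 83.9, 134 and 86.8, and was high in MYC 36 h only. Rpl30 had 21.4, 26.0, 31.4 and 28.1. Rpl10a, of the large subunit, had 200, 217, 150 and 150, and both libraries of 36 h were below both of 24 h. Rpl11, known for binding Mdm2 under ribosomal stress, had 167, 230, 223 and 239, and was low in MYC 24 h only. The ranges of these 4 were 0.67, 0.55, 0.53 and 0.52. Rpl29, in contrast, had FPKMs of 6.62, 7.96, 7.92 and 1.87, from 555, 715, 598 and 170 counts. It was low in MYC-TET1 36 h only, where it was 2.03 below the control of the same time on the log2 scale.

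The paralogs, which replace or resemble a ribosomal protein in certain tissues, were of mixed level. Rpl10l and Rpl39l, known from male germ cells, had no count in any library, which allows up to 3 counts in each. Rpl3l, known from heart and skeletal muscle, had 9, 6, 9 and 0 counts. Rps27l had FPKMs of 102, 103, 101 and 107, Rpl36al had 105, 108, 114 and 106, and Rpl7l1 had 65.5, 67.4, 64.4 and 64.1, so that these 3 differed little between libraries. Rpl22l1 had 6.70, 5.96, 5.16 and 4.68. Rps27rt, an intronless copy of Rps27 within an intron of Osbpl10 on the opposite strand, had 36.7, 77.9, 19.7 and 18.5, and was highest in MYC-TET1 24 h and low in both libraries of 36 h.

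The 10 kinase genes and Rps19bp1 stayed within 0.78 on the log2 scale in every case. Rps6ka6 had no count. The highest of them were Rps19bp1 at 57.7, 57.3, 56.5 and 60.7 FPKM, Rps6ka4 at 35.0, 39.1, 28.7 and 33.4, and Rps6ka1 at 10.4, 9.85, 9.79 and 11.7. Rps6kb1, the kinase that phosphorylates ribosomal protein S6 downstream of mTOR, had 7.34, 6.78, 6.45 and 6.58.

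The question of what MYC-TET1 changed against MYC at each time was addressed with the fold criterion of the study, 2-fold in either direction, in genes at an FPKM of 1 or more in either library. At 24 h, 0 of 75 ribosomal protein genes, 1 of 5 paralogs and 12 of 127 pseudogenes (9.45%) were at least 2-fold apart, against 3.22% of all 11842 genes compared. With a pseudocount of 1 the pseudogenes gave 7 of 127 (5.51%), against 1.7% of all genes. With no filter they gave 21 of 155 (13.5%), and all 55385 genes gave 3.27%. These 2 shares are not alike, as the 155 were selected at a summed count of at least 20, which 18430 of the 55385 genes had. The share of all genes at that limit was not taken, so no excess can be read from them. At 36 h the counts were 1 of 75, 0 of 5 and 18 of 127 (14.2%), against 3.75% of 11959 genes. The difference between 36 h and 24 h in the control cells reached 2-fold in 0 of 75 ribosomal protein genes and in 18 of 126 pseudogenes (14.3%), against 4.72% of 11972 genes. Pseudogenes outside the set gave 10.9%, 13.3% and 13.9% in the same comparisons. The median log2 ratios of the ribosomal protein genes were -0.02 at 24 h and -0.00368 at 36 h, beside -0.00657 and -0.00294 over all genes. With 1 library per condition none of these ratios has a replicate check, and comparisons with the same control library share it.

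**Figure D2:**
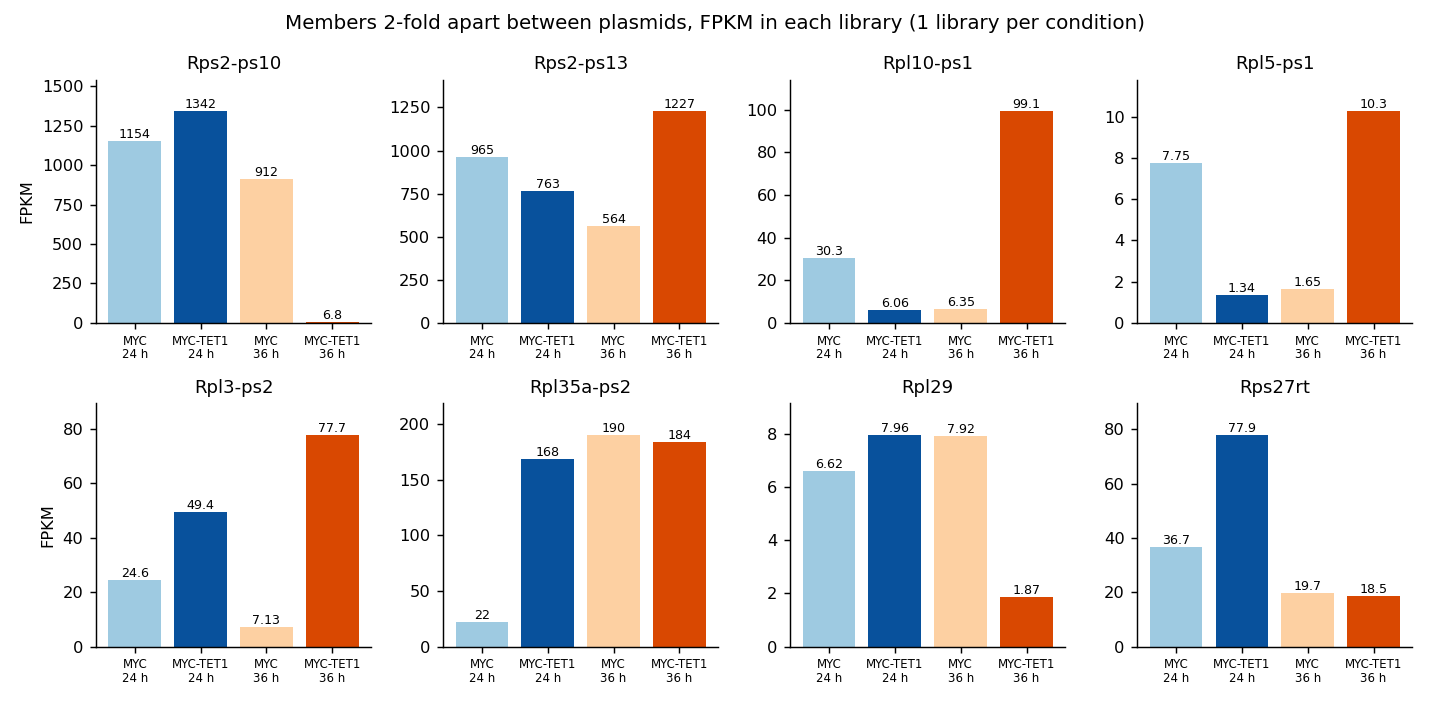
FPKM in each library (linear axes from 0, 1 bar per library) of 8 members that differed at least 2-fold between plasmids at 24 h or 36 h. Rps2-ps10 fell to 6.80 in MYC-TET1 36 h, where Rps2-ps13 reached 1227, and Rpl10-ps1 and Rpl5-ps1 were low in MYC-TET1 24 h and MYC 36 h and high in the other 2 libraries.

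The widest of all was Rps2-ps10, which lies within an intron of Pde6a on the opposite strand. It had 82779, 103067, 59008 and 531 counts, and FPKMs of 1154, 1342, 912 and 6.80. It was low in MYC-TET1 36 h only, 7.05 below the control on the log2 scale. Its near twin Rps2-ps13, which differed from it at 2 of 895 coding positions compared, had 63236, 53597, 33359 and 87385 counts, FPKMs of 965, 763, 564 and 1227, and was highest in that same library. Rps2-ps6, at low depth, had 30, 37, 31 and 2 counts and was also low in MYC-TET1 36 h. The widest ranges after Rps2-ps10 were those of Rpl10-ps1, Rps12-ps24, Rpl3-ps2, Rpl30-ps2, Rpl35a-ps2, Rpl35a-ps5, Rpl5-ps1, Rpl9-ps8 and Rps2-ps6, from 4.01 down to 2.34, and of these Rpl30-ps2, Rpl9-ps8 and Rps2-ps6 had summed counts of 41, 46 and 100. The parent, Rps2, had 7532, 7461, 7493 and 8019 counts, and no library of it stood apart.

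At 24 h the pseudogenes higher with MYC-TET1 included Rpl35a-ps5, Rpl35a-ps2, Rpl7a-ps7 and Rpl3-ps2, with log2 ratios of 2.96, 2.93, 1.02 and 1.00. Rpl35a-ps2 had FPKMs of 22.0, 168, 190 and 184, and was low in MYC 24 h only. Rpl35a-ps5 had 2.24, 18.1, 3.27 and 2.15, and was high in MYC-TET1 24 h only. Rps27rt, the only coding member past 2-fold at this time, had a ratio of 1.08. Those lower with MYC-TET1 were Rpl5-ps1, Rpl10-ps1, Rpl36a-ps3, Rpl10-ps3, Rpl27-ps3, Rps12-ps19 and Rpl27-ps1, with ratios of -2.44, -2.31, -2.27, -1.72, -1.58, -1.28 and -1.11. Rpl27-ps3 had FPKMs of 24.4, 8.11, 25.3 and 25.5, and was low in MYC-TET1 24 h only, whereas Rpl10-ps3, at 32.5, 9.80, 11.6 and 10.6, was high in MYC 24 h only.

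At 36 h, 11 pseudogenes were higher with MYC-TET1. They included Rpl10-ps1, Rpl3-ps2, Rps12-ps24, Rpl5-ps1, Rpl17-ps8, Rpl15-ps3, Rpl30-ps9, Rpl36-ps3, Rpl30-ps1 and Rps2-ps13, with log2 ratios from 3.94 down to 1.12. Rps12-ps24 had FPKMs of 3.59, 2.66, 5.13 and 31.4, and was high in MYC-TET1 36 h only. Rpl15-ps3, whose copy of the Rpl15 coding sequence is without a difference, had 24.6, 43.2, 38.6 and 102, and was the higher with MYC-TET1 at both times. The 7 lower with MYC-TET1 were Rps2-ps10, Rpl13-ps6, Rpl12-ps1, Rpl17-ps5, Rpl17-ps9, Rps12-ps19 and Rpl30-ps8, with ratios of -7.05, -1.57, -1.55, -1.25, -1.19, -1.14 and -1.08. Rpl29 was the only coding member past 2-fold at this time, at -2.03.

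Of the 127 pseudogenes compared at both times, 2 were past 2-fold in the same direction at both and 2 in opposite directions (1.57% each), against 0.511% and 0.459% of all 11547 genes compared. Rpl3-ps2 was at least 2-fold higher with MYC-TET1 at 24 h and at 36 h, with FPKMs of 24.6, 49.4, 7.13 and 77.7, and Rps12-ps19 was at least 2-fold lower at both, with 2.61, 1.02, 2.003 and 0.858. With a pseudocount of 1 neither was 2-fold at both times, as the log2 ratio of Rpl3-ps2 at 24 h was 0.98 and those of Rps12-ps19 were -0.84 and -0.69. Rpl10-ps1 and Rpl5-ps1 were past 2-fold in opposite directions. Rpl10-ps1, within an intron of Pax6os1, had 30.3, 6.06, 6.35 and 99.1, and Rpl5-ps1 had 7.75, 1.34, 1.65 and 10.3.

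Fitted over both times with edgeR's quasi-likelihood test on the counts of 17119 genes, with time and plasmid as terms, 0 members were called for either term after Benjamini-Hochberg adjustment. The share called over all genes was 0.0467% for the plasmid and 0.0993% for time. For the plasmid, 3 of 76 ribosomal protein genes and 7 of 151 pseudogenes tested had an unadjusted p under 0.05, and for time 10 of 76 and 12 of 151 did. Over all genes these were 669 (3.91%) for the plasmid and 1912 (11.2%) for time. The plasmid term came nearest in Rpl21-ps15, with a log2 fold change of -0.39 and an edgeR adjusted p of 0.338, and was lower with MYC-TET1 at both times. Its FPKMs were 570, 420, 480 and 374. The time term came nearest in Rpl10a, with -0.49 and an edgeR adjusted p of 0.0745. The fit assumed the same plasmid effect at both times and had 1 residual degree of freedom. An effect that differed between the times, as in Rpl10-ps1, therefore counted as error. Nothing in the labels says that the libraries came from separate cultures, so these p-values measure only the spread between 4 libraries. DESeq2 on the same counts called 0.648% of all genes for the plasmid and 2.8% for time. Of the members it called 2 of 242 (0.826%) for the plasmid, Rpl15-ps3 at a log2 fold change of 1.12 and Rpl21-ps15 at -0.39, and 3 of the 217 given an adjusted p (1.38%) for time, Rpl10a at -0.49, Rpl15-ps3 at 0.93 and Rps27rt at -1.51.

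Counts were then summed over each parent and its copies, as the single loci could not be told apart with certainty. By name, the 155 pseudogenes fell into 51 families with a parent in the coding set. Copies took over 50% of the counts in 8 families, with the highest shares in Rpl21 (98.8%), Rps2 (94.1%), Rpl35a (83.4%), Rps18 (78.6%) and Rpl17 (70.5%). The range in log2 CPM was smaller for the sum than for the parent in 34 of 51 families, and in 10 of the 11 with over 30% of the counts on copies. In the 30 families with under 10% on copies it was smaller in 18. There the sum is nearly the parent itself, and many of the falls were slight, as in Rpl12 (0.10996 to 0.10990). The median range was 0.13 for the parents, 0.37 for the summed copies in the 50 families where it could be taken, and 0.12 for the sums. The sum lowered the range most in Rpl30 (0.54 to 0.15), Rpl17 (0.37 to 0.10), Rpl29 (2.09 to 1.84), Rpl3 (0.21 to 0.11) and Rpl10 (0.28 to 0.19). Of those 11 families Rps2 alone had the wider range as a sum, from 0.24 to 0.79. A sum over several loci also averages out their counting error, and this part was not tested.

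Many copies have names that do not show the parent, so copies were also gathered by sequence, a rule chosen after the data were seen. A copy was any gene of the table outside the coding set with a transcript at 90% identity or more over at least 80% of a parent coding sequence. The pseudogenes of the set were kept in the family of their name even where they failed this rule. Rps19 had only copies kept in this way, aligned over 63.8% to 64.8%. Together these gave 965 copies, 491 of them with a summed count of at least 20, and 71 of the 76 ribosomal protein genes had at least 1 copy. Copies held 26.9% of all counts of the 76 genes and their copies. Genes and copies together took 6.11%, 6.06%, 6.10% and 6.10% of the counts of the libraries.

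With these copies the sum had the smaller range in 46 of 71 families, and the median range went from 0.14 for the parents to 0.11 for the sums, with 0.22 for the copies alone. In the 19 families with over 30% of the counts on copies it was smaller in 13, and the medians were 0.17 and 0.10. The 6 with a wider sum were Rps2, Rpl15, Rplp0, Rps7, Rpl38 and Rpl23. In the other 52 families it was smaller in 33. Ranges above 0.5 were found in 6 parents and in 3 sums.

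**Figure D3:**
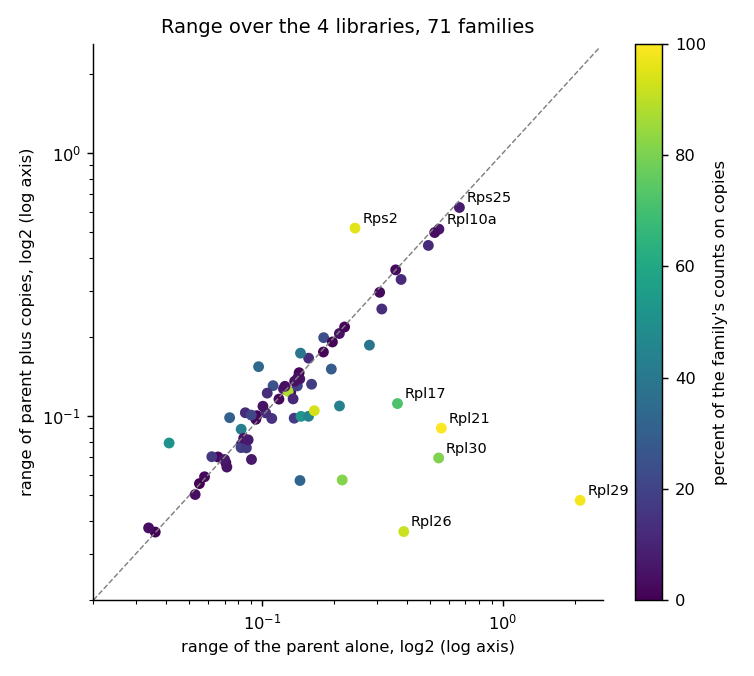
Range over the 4 libraries in log2 CPM of the parent plus its copies by sequence against that of the parent alone (both axes logarithmic), 1 point per family, 71 families, coloured by the percent of the family's counts on copies. Points under the dashed line of equality had the smaller range as a sum, with Rpl29 at 2.09 and 0.05, and Rps2 lies above it at 0.24 and 0.52.

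The range differed most between parent and sum in Rpl29. Of the counts of its family 98.6% lay on copies. Gm13841, at 99.4% identity, had 365, 362, 211 and 352 CPM, and was low in MYC 36 h only. Gm8210, whose coding sequence did not differ from that of Gm13841, had 76.4, 85.3, 182 and 132, and was highest where Gm13841 was lowest. Gm14036 had 21.9, 3.12, 56.1 and 3.90, and Rpl29 itself 8.31, 10.01, 9.87 and 2.34. The sum over the family was 530, 536, 547 and 548 CPM. The range of Rpl29 was 2.09 alone and 0.05 as a sum. Rpl29 made up 1.39% of the family's counts, so the sum is in effect that of the copies and could not show a change of Rpl29 itself.

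Rpl21 had 99.7% of its family's counts on copies, so its sum too was set by them. Its 3 leading copies were Gm10163 at 244, 263, 306 and 298 CPM, Gm13370 at 231, 242, 228 and 284, and Rpl21-ps15 at 306, 226, 257 and 201. The coding sequences of Gm10163 and Gm13370 did not differ over the 481 positions compared, and that of Rpl21-ps15 differed from each at 1 position. Rpl21-ps15 was lower with MYC-TET1 at both times, while Gm10163 was higher at 24 h and lower at 36 h. The sum for the family was 960, 922, 902 and 914, with a range of 0.09, against 0.56 in Rpl21 alone. With the copies by name only, the range of the sum was 0.55, so that the sum hardly narrowed it.

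**Figure D4:**
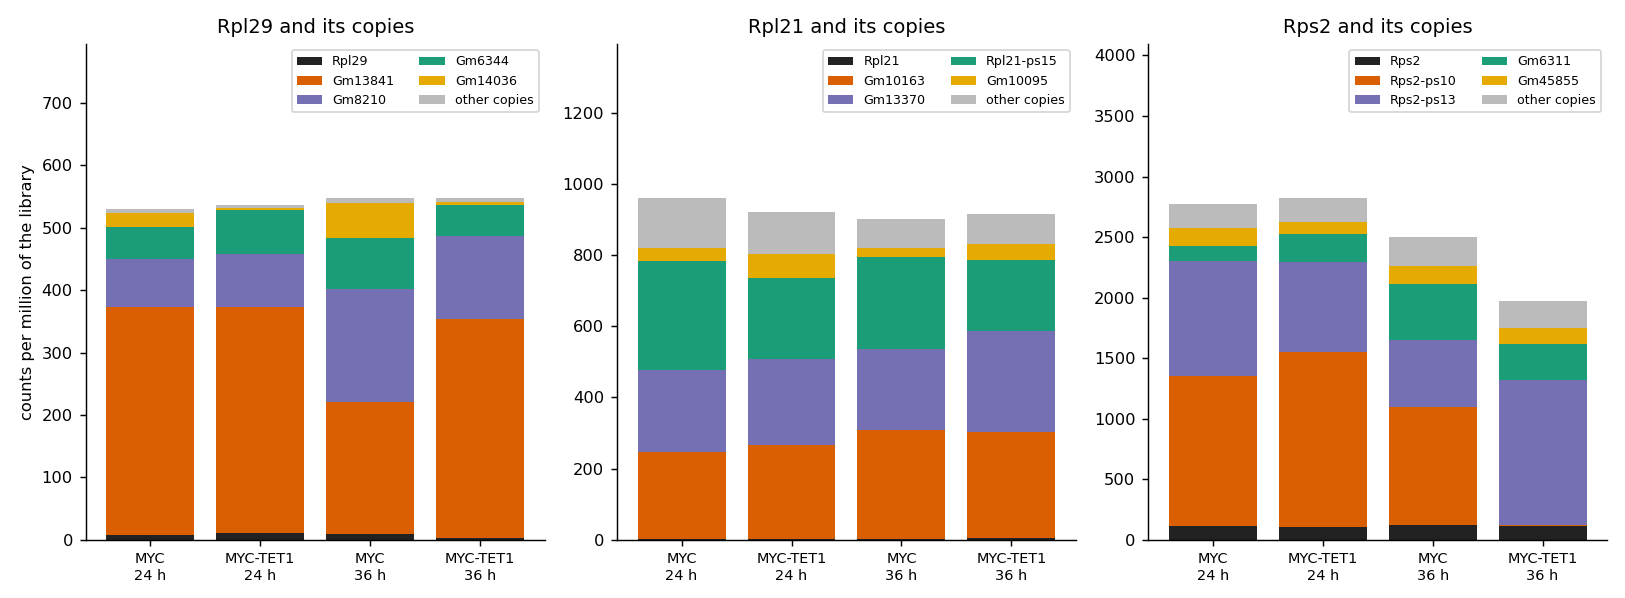
CPM in each library, stacked over the parent (black), its 4 leading copies and all other copies by sequence, for Rpl29, Rpl21 and Rps2. The stacks of Rpl29 stayed between 530 and 548 and those of Rpl21 between 902 and 960 while their parts changed, and those of Rps2 went from 2824 in MYC-TET1 24 h to 1971 in MYC-TET1 36 h.

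The family of Rps2 had the widest range as a sum among the 19. Rps2-ps10 had 1239, 1442, 974 and 7.32 CPM, Rps2-ps13 had 947, 750, 550 and 1205, and Gm6311 had 132, 229, 461 and 293. Rps2 itself had 113, 104, 124 and 111. Both Rps2-ps13 and Gm6311 were thus not at their lowest in the library where Rps2-ps10 nearly vanished, and Gm6311 was highest in MYC 36 h. The sum over Rps2 and its copies was 2770, 2824, 2497 and 1971, lower in both libraries of 36 h than in both of 24 h and lowest in MYC-TET1 36 h, with a range of 0.52. Whether further loci took up the remaining reads was not tested.

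Sums were also taken for families of other 2-fold pseudogenes. Rpl10-ps1 held 1455, 312, 275 and 5163 counts, against 29392, 30894, 25032 and 26298 on Rpl10, and the family of Rpl10 had a range of 0.19. Rpl10-ps6, at 99.8% identity, had 8156, 9255, 9197 and 7127 counts and was lowest where Rpl10-ps1 was highest. The range went from 0.21 in the parent to 0.11 in the sum for Rpl3, from 0.54 to 0.07 for Rpl30 and from 0.16 to 0.10 for Rps12. It hardly moved for Rpl35a, at 0.13 and 0.12, and went from 0.31 to 0.26 for Rpl27. The sum was the wider for Rpl15, at 0.15 against 0.10 in the parent, and for Rpl5, at 0.12 against 0.11. Rpl26 had no pseudogene in the set, yet 91.8% of its family's counts lay on copies, chiefly Gm15772 at 2218, 2233, 2268 and 2267 FPKM, and its range went from 0.39 alone to 0.04 as a sum.

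Where few counts lay on copies, the ranges of the genes remained. Rps25 went from 0.66 to 0.62, Rpl10a from 0.54 to 0.51 and Rpl11 from 0.52 to 0.50. Rpl10a-ps1, which carries the whole Rpl10a coding sequence, had a range of 0.37.

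**Figure D5:**
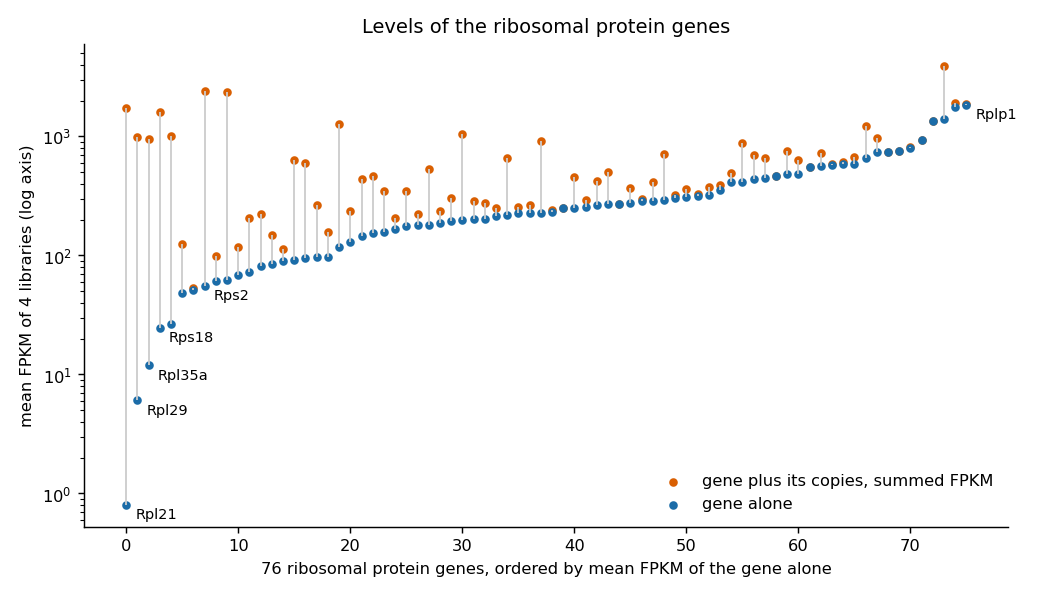
Mean FPKM over the 4 libraries (log axis) of the 76 ribosomal protein genes, ordered by the level of the gene alone (blue), with the summed FPKM of the gene and its copies by sequence (orange). Rpl21 and Rpl29, the lowest alone, went from 0.802 to 1719 and from 6.09 to 996. Other low genes rose little, such as Rps20 from 48.1 to 125 and Rpl22 from 51.7 to 53.3. No sum lay under 50.

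Copies also changed the order of the levels. Alone, 6 of the 76 genes had a mean FPKM under 50, and as a sum with their copies none did, the lowest sum being 53.3. The standard deviation between genes of the log2 mean FPKM was 1.79 alone and 1.17 with copies. Of the 10 genes lowest alone, 7 had over 50% of their family's counts on copies, and the median share of these 10 was 89.9%, against 9.78% over all 76. With copies Rpl21 reached 1719, Rps18 1599, Rpl30 1000, Rpl29 996 and Rpl35a 945. Rps18 had its counts chiefly on Gm10260, typed as protein-coding, at 99.1% identity and 1212, 1193, 1126 and 1167 FPKM. The gene models of parents and copies differ in length, so a summed FPKM adds values scaled to unlike lengths.

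Other genes of ribosome production and translation were also examined. None of 30 ribosome biogenesis genes, 15 translation factors of the TOP class, 15 genes of the mTOR arm and 78 mitochondrial ribosomal protein genes was 2-fold apart between plasmids at 24 h or 36 h, and all of these passed an FPKM of 1. The shares of other protein-coding genes 2-fold apart were 1.62% and 1.75%. The median ranges of the lists, in the order named, were 0.18, 0.09, 0.17 and 0.17 on the log2(FPKM + 0.1) scale, beside 0.27 over all genes past that level. Ncl, encoding the nucleolar protein nucleolin, had FPKMs of 89.2, 86.3, 85.0 and 83.7, and Eef2, the translocation factor of elongation, had 1025, 1050, 1064 and 1106. Mtor had 5.24, 5.64, 5.42 and 5.82. Over the 4 libraries 2 of these genes spanned at least 2-fold. They were Mrps23, of the mitochondrial small subunit, at 36.5, 19.95, 42.2 and 22.7, which was the lower with MYC-TET1 at both times, and Pdcd4, an inhibitor of translation initiation, at 2.61, 1.42, 3.06 and 2.79.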

How the data were processed

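RNA of 4 libraries, 1 per condition, was extracted with Trizol and prepared with an Illumina TruSeq kit. The authors deposited 1 table with a read count and an FPKM value per gene and library. Counts are whole numbers per gene, not normalized. The authors scaled FPKM values to gene length and library depth. The submitters' processing notes name Bowtie 0.12.2 and the builds mm8 and mm9 without a role. The counter, the annotation and the treatment of reads with several matches are not given in the sources used here. All 250 member identifiers were in GENCODE M21 (GRCm38), and 231 had the same start and end there, so coordinates are given in that build.

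Members and gene lists were chosen with earlier results of these data known. Ranges and ratios were taken on log2(FPKM + 0.1) among genes at an FPKM of 1 or more, where a fold change understates the change of low genes, and families on CPM (counts scaled to the library total). Genes past 2-fold, and named genes, were described without a test: for level, the 5 highest and 5 lowest ribosomal protein genes by mean FPKM, and for range the 5 widest and every paralog. For pseudogenes they were the 10 with the highest count, the 10 with the widest range and up to 10 per direction past 2-fold at a time point, and for families the 5 with the highest share on copies and the 5 whose range fell most. edgeR 4.0.16 (R 4.3.3) fitted time and plasmid to the counts after TMM and filterByExpr, with Benjamini-Hochberg adjustment at 0.05, and DESeq2 1.42.0 was an alternative. Coding sequences were aligned with blastn 2.17.0 to transcripts of at most 1500 bases, plus strand. The code was tested on simulated data. Alternatives were a pseudocount of 1, no filter, TMM CPM with a prior count of 0.5, a summed count of 100, other copy rules and leaving out each library. The counts were deep, at 60611877 to 72547105 per library, but depth does not tell near-identical loci apart. Some items, a few named members among them, are not reported here.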

Additional observations from a re-analysis of the deposited data

Results flagged for a closer look

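Rpl10-ps1 and Rpl5-ps1 stood out because MYC-TET1 was at least 2-fold below MYC at 24 h and at least 2-fold above it at 36 h. The log2 ratio of Rpl10-ps1 was -2.31 at 24 h and 3.94 at 36 h, a difference of 6.25. That of Rpl5-ps1 was -2.44 and 2.56, a difference of 5.01. With 1 library per condition the difference between the times was not tested. Rpl10-ps1 has the coding sequence of Rpl10 without a differing base and Rpl5-ps1 is at 98.9% identity with Rpl5, and the part of reads shared with the parent was not tested.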

How the results depend on the processing

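The share of pseudogenes spanning at least 2-fold, 25.98%, was 15.7% with a pseudocount of 1 and 34.8% with no filter, and leaving out 1 library gave 18.1% (without MYC-TET1 36 h) to 22.0%. That of the coding set, 2.27%, was 1.14% to 2.27% with 1 library left out. Over the same members a range of fewer libraries cannot be wider, so leaving 1 out could only lower these shares or keep them. The shares of all genes with 1 library left out were not taken. The count of families with a smaller range as a sum, 34 of 51, was 29 to 33 with 1 library left out, 32 with TMM factors and 37 of 55 with copies also by description. Members past 2-fold at 24 h numbered 13 of 215, against 8 of 215 with a pseudocount of 1 and 22 of 250 with no filter. The shares of all genes were 3.22%, 1.7% and 3.27%, the last including genes under the count limit of the pseudogene set. At 36 h they numbered 19 of 215, against 3.75% of all genes. With a pseudocount of 1 and with no filter they numbered 14 of 215 and 27 of 250. For these 2 settings the shares of all genes at 36 h were not taken, so the counts cannot be set against them. DESeq2 called 2 members for the plasmid and 3 for time where edgeR called 0, and the cause was not tested. edgeR without the filter, or with the other term left out, also called 0. The 32 ratios past 2-fold were also recomputed with a pseudocount of 1 and with TMM CPM, and none changed sign. Neither setting could have changed one, as a shared pseudocount keeps the sign and the TMM factors were 0.991 to 1.012. The signs are therefore no check on these ratios. The share of counts on the pseudogene set was 0.0818 percentage points lower at 36 h than at 24 h, and 0.000348 higher without Rps2-ps10 and Rps2-ps13. The labels carry no replicate numbers, and the fit with time as a term compares the plasmids within each time. Pseudogenes with summed counts of 20 to 99 had a median dispersion index of 3.42.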
